A study of Mus musculus with 2 samples.

Results

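The B-lineage cells of mouse bone marrow that had been sorted as E-cadherin+cKIT- were described here, 229 cells of the 3688 in that library with at least 1000 unique molecular identifiers (UMIs, each marking 1 captured transcript). They were chosen by measured values, as cells with at least 3 UMIs of Cd79a plus Cd79b, Mcpt8 under 0.5% of the cell's UMIs and fewer than 50 Jchain UMIs. They made up 6.21% of those 3688 cells (exact binomial 95% interval 5.45 to 7.04%) and 229 of the 10377 cells of the whole series. The study asked which blood cells carry E-cadherin, the adhesion protein encoded by Cdh1, and sequenced bone marrow of healthy mice (labelled FVB, and named in the study's text both as wild-type and as Vav-iCre;mTmG) as 1 single-cell library of E-cadherin+cKIT+ cells and 1 of E-cadherin+cKIT- cells. In Vav-iCre;mTmG mice, Cre under the Vav promoter switches a membrane reporter from tomato to GFP in blood cells, and Cdh1 is intact. The cells came from 3 mice and carry no mouse label, no treatment is named for either sort, and the age of the mice is not given in the sources used here. With 1 library per sort there are no replicates, so no test was made, a sort and its library cannot be told apart, and every interval below covers counting error only.

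B cells arise in the bone marrow from lymphoid progenitors. Pro-B cells rearrange the heavy chain locus with the RAG recombinase and the polymerase terminal transferase, pre-B cells carry the new heavy chain with a surrogate light chain and divide, and immature B cells then show a complete receptor with a kappa or lambda light chain. Transitional and mature B cells add IgD, CD20, CD23 and complement receptors, present antigen on MHC class II, and may return to the marrow from the blood.

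Vpreb3, which encodes a relative of the surrogate light chain in pre-B and immature B cells, ranged from 0 to 48 UMIs per cell here, and its start region is shown because it carries the octamer, the motif bound by Oct-2 (Pou2f2) and its coactivator OBF-1 (Pou2af1) at immunoglobulin and other B cell genes. The 250 bases upstream of the RefSeq start lie at chr10:75948050-75948299 on the plus strand (GRCm38.p6), with no annotated exon of GENCODE release M21 in them, and capitals mark the octamer, 45 to 38 bases before the start.
Vpreb3: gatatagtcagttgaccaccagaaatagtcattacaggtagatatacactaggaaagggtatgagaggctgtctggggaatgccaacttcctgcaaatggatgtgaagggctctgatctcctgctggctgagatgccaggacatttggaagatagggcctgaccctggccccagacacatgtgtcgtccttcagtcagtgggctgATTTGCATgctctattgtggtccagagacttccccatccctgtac
The octamer was searched as ATTTGCAT on both strands (ATGCAAAT on the other), and 526 of 32851 promoters in the RefSeq table (1.60%) held it in the same 250 bases. Of the 10 B-lineage marker genes, 7 were in the table and 2 held it, Vpreb3 and Blnk, the adaptor of B cell receptor signalling, whose window overlaps an annotated exon and is not printed. Transcripts of the octamer factor and of its coactivator were found in the cells, Pou2f2 in 177 and Pou2af1 in 143 of the 229 cells. A match of letters does not show that the factor was bound.

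The cells carried the label's markers beyond those used to choose them. Ms4a1 (CD20) had a UMI in 204 of 229 cells, and Ebf1 and Pax5, the transcription factors that set and hold B cell identity, in 227 and 134. All 229 had a UMI of at least 1 of these 3 genes, and 217 had at least 2 of them. The chosen cells held 6 to 83 UMIs of Cd79a plus Cd79b, the 2 signalling chains of the B cell receptor (median 19), so none lay at the limit of 3, and each had at least 1 UMI of both. The next lowest cell had 8. Below the limit, 12 cells without the basophil amount of Mcpt8 had 2 UMIs, 91 had 1 and 1119 had 0. The highest Mcpt8 share of a member was 0.240%, against 0.815% for the lowest of the 30 cells that had at least 3 Cd79a plus Cd79b UMIs and were over the Mcpt8 limit.

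**Figure D1:**
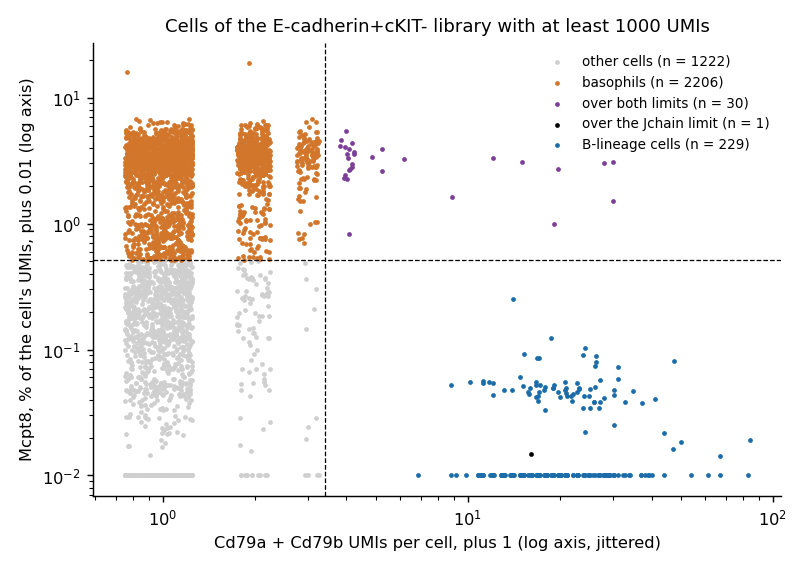
Cd79a plus Cd79b UMIs per cell (horizontal, plus 1, log axis with jitter) against Mcpt8 as a percentage of the cell's UMIs (vertical, plus 0.01, log axis) for the cKIT- cells with at least 1000 UMIs, each point a cell and dashed lines the limits. Both axes are values of the rule, which fixes the division between the 229 B-lineage cells and the 2206 basophils, and the lowest B-lineage cell has 6 Cd79a plus Cd79b UMIs, with 30 cells over both limits and 1 over the Jchain limit.

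The members were shallow beside the basophils of this sort. They held 1028 to 25489 UMIs (median 2707) and a median of 1279 genes. The 2206 basophils of the library (Mcpt8 at or over 0.5%, Cd79a plus Cd79b under 3 UMIs) held a median of 7830.5 UMIs and 2509.5 genes. Over all 3688 cells the median was 4504.5 UMIs. Mitochondrial transcripts took a median of 7.25% of a member's UMIs and 3.95% of a basophil's. Because of this gap, detection was also scored after each cell was thinned to 1000 UMIs, and levels are given as UMIs per 1000000 UMIs of the group (CPM). A 3′-end UMI count is not divided by gene length, and levels are compared between groups for the same gene. The libraries shared 10 cell barcodes, of which 2 belonged to members.

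Genes of the antigen receptor itself were found in nearly every cell. Ighm, the constant region of IgM, had a UMI in 228 of 229 cells (per cell 0 to 135 UMIs, median 12) and a level of 4894 CPM (4741 to 5052). Ighd, the IgD constant region that mature B cells splice from the same transcript, was found in 193 cells (0 to 16 UMIs, median 4), and all 193 also had Ighm. Basophils of the same library held 1.13 CPM of Ighm and 0.430 CPM of Ighd. Cells with both made up 84.3% (78.9 to 88.7%).

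Transcripts of the other heavy chain isotypes were few. Ighg3 had 46 UMIs in 30 of the 229 cells (at most 5 in a cell), all of which also had Ighm. Whether these cells had switched isotype was not tested. Ighg2b had 6 UMIs in 2 cells and Igha 1 UMI, and Ighg1, Ighg2c and Ighe had none, which allows up to 3.82 CPM of each. The genome used by the authors is of another strain than the FVB mice of the labels, and strains differ in the IgG2a and IgG2c genes. The plasma cell regulator Prdm1 and the plasma cell receptor Tnfrsf17 were at 0 UMIs, and Jchain, which the rule used, had 1. Mzb1, a chaperone of B cells and plasma cells, was found in 175 cells at 762.0 CPM. Single variable genes gave 43 heavy chain and 50 kappa UMIs in all, too few to name a clone.

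Kappa was the main light chain. Igkc had a UMI in 225 cells (0 to 255 UMIs, median 35), and 214 of 229 cells (93.4%, 89.4 to 96.3%) held more Igkc than lambda UMIs (Iglc1, Iglc2 and Iglc3 summed). In 13 cells (5.68%, 3.06 to 9.51%) lambda exceeded kappa, with 9 to 111 lambda UMIs (median 20) and 0 to 79 Igkc UMIs (median 9). The remaining 2 cells were tied, 1 of them with neither chain. The lambda-dominant cells had Ms4a1 in 12 of 13 and Ighm in 13 of 13.

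Lambda transcripts were not confined to the lambda-dominant cells. Of the 214 cells with more kappa, 203 held lambda UMIs (0 to 98, median 8), and 217 of all 229 cells had at least 1. Iglc3 was found in 211 cells, Iglc2 in 191 and Iglc1 in 127. The 3 genes together were near 0 in basophils, with Iglc2 at 0.323 CPM against 1551 CPM in the members. Iglc2 and Iglc3 are near-identical copies, so the split of reads between them is uncertain and their sum is the firmer value. Whether these are whole lambda chains or other transcripts of the constant genes was not tested, since the reads come from the 3′ end.

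**Figure D2:**
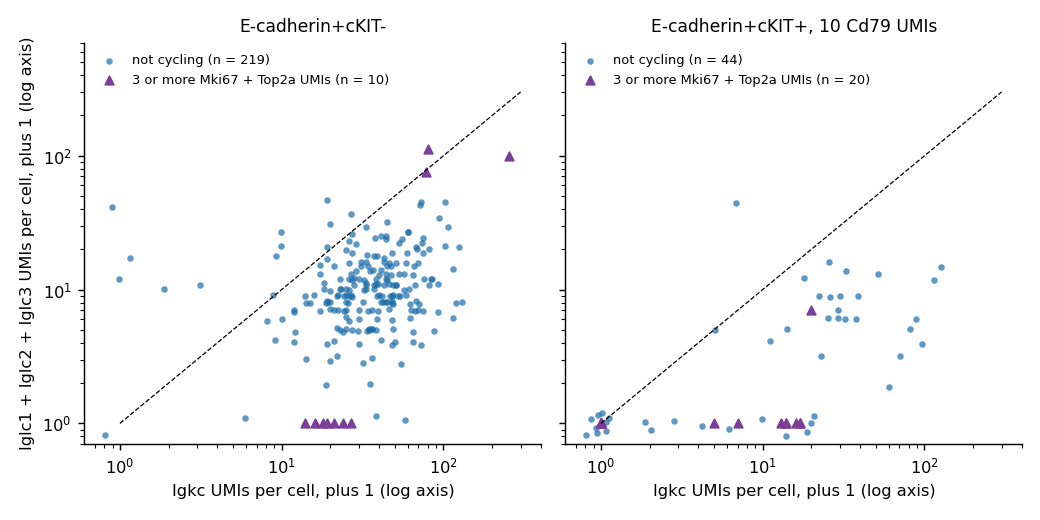
Igkc UMIs per cell (horizontal, plus 1, log axis) against Iglc1, Iglc2 and Iglc3 UMIs summed (vertical, plus 1, log axis) in the 229 cKIT- B-lineage cells (left) and 64 cKIT+ cells with at least 10 Cd79a plus Cd79b UMIs (right), each point a cell, with a dashed line of equality and triangles for cells with at least 3 Mki67 plus Top2a UMIs. Most cKIT- cells lie under the line, and 7 of the 10 cycling cells lie at 0 lambda.

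Most members held genes of the later stages. At least 1 UMI of the mature set (Ighd, Fcer2a, Ms4a1, Cr2) and none of the precursor set (Rag1, Rag2, Dntt, Vpreb1, Igll1) was found in 212 cells (92.6%, 88.4 to 95.6%), both sets in 6, the precursor set alone in 8 and neither in 3. With 3 UMIs required, the counts were 207 mature only, 6 precursor only, 0 both and 16 neither. Terminal transferase (Dntt) was at 0 in all 229 cells, which allows a share of up to 1.60% of cells with a UMI, and the surrogate light chain genes Vpreb1 and Igll1 were found in 5 cells each.

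Among the late genes, Fcer2a (CD23) was found in 126 cells (0 to 11 UMIs), Cr2 (CD21, a complement receptor) in 58, Fcmr (the IgM Fc receptor) in 170 and Bank1 (a B cell scaffold protein) in 189. Klf2, a factor of resting lymphocytes, was found in 218 cells (0 to 46 UMIs, median 4), and Tnfrsf13c, the receptor for the survival factor BAFF, in 145. The homing receptors Ccr7 and Cxcr5 were found in 72 and 46 cells. None of the 18 transitional and mature genes was at 0.

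Cells with and without CD23 transcripts differed in earlier genes, as a description within 1 set of cells. Vpreb3 had a UMI in 44.4% of the 126 Fcer2a+ cells (35.6 to 53.6%) and in 76.7% of the 103 others (67.3 to 84.5%). Cd24a (heat stable antigen, high on immature B cells) was found in 43.7% (34.8 to 52.8%) and 76.7% (67.3 to 84.5%) of them. Sox4, a factor of early lymphocytes, was found in 2.38% (0.494 to 6.80%) and 31.1% (22.3 to 40.9%), and Il7r, the receptor for the cytokine of pro-B and pre-B cells, in 1.59% (0.193 to 5.62%) and 21.4% (13.9 to 30.5%). Ighd went the other way, at 98.4% (94.4 to 99.8%) and 67.0% (57.0 to 75.9%). Median depths were 2623 UMIs with and 2799 without Fcer2a, and 10 cycling cells, the deepest of the 229, were all among the 103 without it. In the 93 others, Vpreb3 was found in 74.2%, Cd24a in 74.2%, Ighd in 69.9%, Sox4 in 26.9% and Il7r in 16.1%, a split taken after the values were seen. After thinning to 1000 UMIs, Vpreb3 was at 22.8% (14.1 to 33.6%) of 79 cells with and 50.7% (42.4 to 58.9%) of 150 without Fcer2a, Cd24a at 17.7% and 42.0% and Ighd at 89.9% and 57.3%. Cr2 was at 32.5% (24.5 to 41.5%) and 16.5% (9.92 to 25.1%) before thinning. After thinning it was at 13.9% (7.16 to 23.5%) and 12.0% (7.27 to 18.3%). The Cr2 intervals of cells with and without Fcer2a overlapped both before and after thinning.

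The 10 members over 7000 UMIs were the cycling ones. They were the 10 cells with at least 3 UMIs of Mki67 plus Top2a, marks of dividing cells, held 11 to 66 such UMIs (median 35) and carried 20.7% of all members' UMIs. Of the other 219 cells, 218 had none of these UMIs and 1 had 1. The 10 cells fell into groups of 7 and 3 by Ms4a1, a split made after the values were seen.

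The 7 cycling cells without Ms4a1 (7357 to 25489 UMIs) held genes of the precursor stages, with a UMI of the precursor set in 6 of 7. Each held 16 to 48 Vpreb3 UMIs (median 38), 4 to 14 Il7r UMIs (median 8), 6 to 61 Cd24a UMIs (median 24) and 31 to 102 Ighm UMIs (median 58), and they carried all 23 Igll1 UMIs and 30 of the 31 Vpreb1 UMIs of the 229 cells. Each also held 13 to 26 Igkc UMIs (median 18) and 0 lambda UMIs, and Fcer2a was 0 in all 7. Cd74 was seen in 2 of them, with at most 7 UMIs. Of the 12 members without any lambda UMI, 7 were these cells.

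The 3 cycling cells with Ms4a1 (10132 to 23258 UMIs) had another pattern. They held 14 to 36 Ms4a1 UMIs, 84 to 109 Cd74 UMIs, 77 to 255 Igkc UMIs and 75 to 111 lambda UMIs, with 0 UMIs of the precursor genes, of Il7r and of Sox4. Ighd was 1 to 6 UMIs and Fcer2a 0 in all 3. In 1 of them, lambda exceeded kappa.

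**Figure D3:**
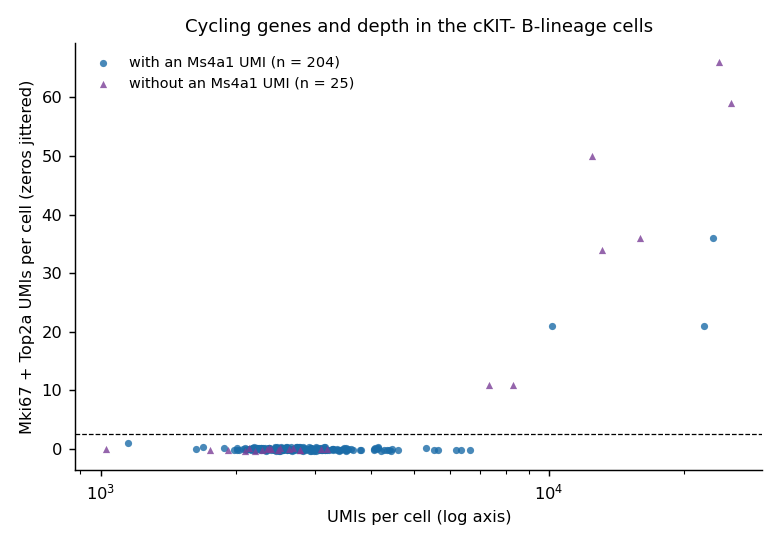
UMIs per cell (horizontal, log axis) against Mki67 plus Top2a UMIs (vertical, zeros jittered) in the 229 cKIT- B-lineage cells, each point a cell, triangles without and circles with an Ms4a1 UMI, and the dashed line below 3 UMIs. The 10 cells above the line are those over 7000 UMIs, 7 without and 3 with Ms4a1.

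Against basophils of the same library, 332 of 3745 genes (8.87%) were at least 4-fold higher in CPM in the B-lineage cells and 342 (9.13%) at least 4-fold lower, a description, since the rule separated the groups on genes of these cells. The median gene was 0.13 higher on the log2 scale. With edgeR's TMM scaling, which shifts the log2 ratios by 0.32, the counts were 265 higher and 428 lower. The leading genes were Fcmr at 601 CPM (472 UMIs in 170 cells, against 1 UMI in basophils, a ratio of 11187 with an interval of 1998 to 442770), Ly6d, a surface protein of early and later B cells (2590 against 0.323 CPM), Fcrla (423 CPM), the unnamed locus Gm30211 (386 CPM) and Pax5 (381 CPM), the last 3 with 1 basophil UMI each. Gm30211 lies at chr6:70719074-70740554, a span that contains Igkc (chr6:70726435-70726966), so reads of the 2 may not be separable.

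The lists showed where the B-lineage cells stood. All 10 B-lineage markers, Cd79a and Cd79b of the rule included, and all 7 measured immunoglobulin constant genes were among the 4-fold higher genes, with list medians of 11.49 and 12.08 on the log2 scale. The rule itself set Cd79a plus Cd79b apart between these groups, and both genes stand in the count of 10 and the median of 11.49. Of the 11 measured genes of the MHC class II presentation list, which also holds Cd40, 9 were. They were led by Cd74 (the invariant chain, 10994 CPM against 1.88) and H2-Aa (3443 CPM), with the class II regulator Ciita in 112 cells. Of the 19 B-lineage transcription factors measured 16 were, and the 3 within 4-fold were Ikzf1, Spi1 and Myb, at ratios of 1.15, 0.644 and 0.785. Of the 19 receptor signalling genes 11 were, Cd79a and Cd79b of the rule among them. Blk was found in 105 cells at 203 CPM against 0.0538, while Grb2 at 0.989 and Btk at 1.49 of the basophil level were within 4-fold. Of the 18 transitional and mature genes 14 were, and of the 15 measured genes of the chemokine and cytokine receptor list 8 were. None of either list was 4-fold lower. The receptor list also holds the cytokine gene Ltb, and it shares Ltb, Cxcr5, Ccr7 and Tnfrsf13c with the mature list. Of 14 measured cycle genes none was 4-fold higher and 1 (Tyms) was lower.

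**Figure D4:**
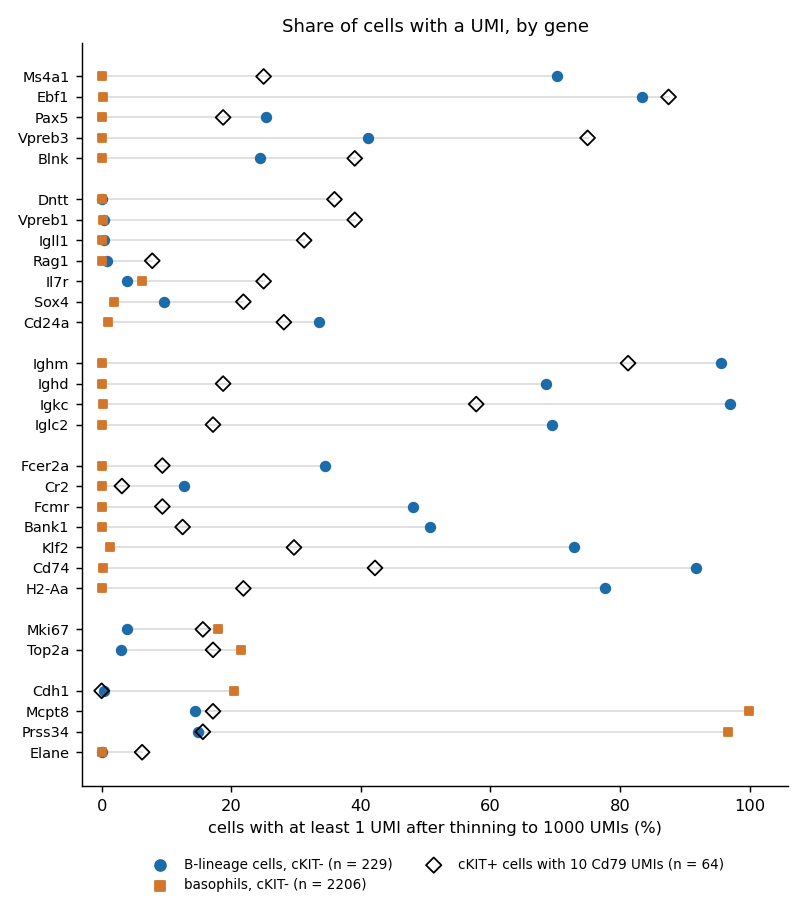
Percentage of cells with at least 1 UMI of each gene (rows) after every cell was thinned to 1000 UMIs, for 229 cKIT- B-lineage cells (circles), 2206 cKIT- basophils (squares) and 64 cKIT+ cells with at least 10 Cd79a plus Cd79b UMIs (diamonds). Igkc is at 96.9% and Cd74 at 91.7% of the B-lineage cells. Mcpt8 is at 99.9% of basophils against 14.4%, a difference set by the rule, which divided these groups on Mcpt8.

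E-cadherin transcripts were nearly absent from these cells of an E-cadherin+ sort. Cdh1 had 5 UMIs in 3 of 229 cells (1.31% of cells, 0.271 to 3.78%; 6.37 CPM, 2.07 to 14.9) and 182 CPM in basophils, of which 73.8% had a UMI, so its level was 3.50% of the basophil level. After thinning, 0.437% of members and 20.4% of basophils had a Cdh1 UMI. The sorted protein was not measured in these files. Kit was at 0 UMIs in all 229 cells, which allows up to 3.82 CPM. Of the partners of cadherins, Ctnnb1 (beta-catenin) was found in 61 cells at 96.8 CPM and Ctnna1 (alpha-catenin) in 15 at 20.4 CPM, 0.248 of the basophil level (0.142 to 0.405). Ptprc (CD45), whose B220 form marks B cells, was found in 184 cells at 525 CPM.

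Basophil transcripts were present at low levels that differed between genes. Mcpt8, the basophil protease that the rule limited, had 119 UMIs in 79 members (0.466% of the basophil CPM), and Prss34, another basophil protease, 116 UMIs in 86 (0.290%). The 15 basophil genes stood at a median of 2.65% of the basophil level, from 0.290% for Prss34 to 8.40% for Il4 (2 UMIs). Of these UMIs, 2 members with 6213 and 6665 UMIs held most of Ccl6 (67 of 80 UMIs), Gata2 (18 of 22) and Ms4a2 (20 of 27), beside 16 and 43 Igkc, 38 and 41 Cd74 and 5 Ms4a1 UMIs each, and they also held 3 of the 5 Cdh1 UMIs. Without these 2 cells, an alternative chosen after the values were seen, the median was 0.460% of the basophil level (0 to 4.27% over the 15 genes) and Cdh1 had 2 UMIs, both in 1 cell (2.59 CPM, 0.314 to 9.36). The part of free RNA or of 2 cells sharing a droplet in these values was not tested.

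Markers of other cell types were low. Of the 12 T and NK genes 9 were at 0, among them Cd3e, Cd3d, Cd3g, Cd4 and Cd8a, and 17 of the 20 UMIs of the list were of Lck. Of the plasmacytoid dendritic cell genes, Siglech and Ccr9 were at 0 and the list summed to 46 UMIs, led by Pacsin1 with 18. The erythroid list summed to 9 UMIs (Hbb-bs 6) and the eosinophil list to 1, with Epx and Prg2 at 0. The neutrophil list summed to 332 UMIs, of which 1 member of 4058 UMIs held 89 S100a8 and 206 S100a9 beside 35 Igkc and 46 Cd74, and Elane and Ngp were at 0. The monocyte list summed to 457 UMIs, of which 437 were Cst3, found in 184 cells at 0.494 of the basophil level, while Csf1r, Ccr2 and Itgax were at 0.

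The same rule found other cells in the cKIT+ library. It gave 155 of 6425 cells (2.41%), of which 69 had a Cd79a UMI, 85 had under 6 Cd79a plus Cd79b UMIs and 68 had at least 10 UMIs of Elane, the elastase of neutrophil precursors. Their median was 16442 UMIs. The B-lineage cells of the cKIT- library were 4-fold higher for 334 of 3720 genes (8.98%) and lower for 220 (5.91%). The lower genes were led by Elane (at least 2352-fold), Prtn3 (2262-fold, 626 to 18681), Mpo (1126-fold), Nkg7 (848-fold) and Ctsg (392-fold), proteases and granule genes, and the higher by Pxdc1 (80.2-fold, 30.2 to 301), the chemokine receptor Cxcr5 (70.0-fold), Ighd (65.1-fold), and the receptors Cd40 (63.8-fold) and Btla (61.1-fold). Averaging CPM per cell gave 122 higher and 207 lower, and leaving out cells with 3 or more UMIs of other cell types gave 41 and 10. With Cst3 not counted among those UMIs, a choice made after the values were seen, it gave 40 and 47. A stricter set was used beside these 155 cells, the 64 cKIT+ cells with at least 10 Cd79a plus Cd79b UMIs (0.996%, 0.768 to 1.27%). All 64 had Cd79a and Ebf1, their median was 3377.5 UMIs, and 1 of them held at least 10 Elane UMIs. This set was chosen after the values were seen. In the cKIT- library, 223 of the 229 cells met that limit.

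Between the 229 cKIT- cells and these 64 cKIT+ cells, 119 of 3691 genes (3.22%) were 4-fold higher and 104 (2.82%) 4-fold lower. The 5 deepest cKIT+ cells held 36.1% of that set's UMIs. With the mean of per-cell CPM, chosen after the values were seen, 50 of 3703 genes were higher and 119 lower. The median over all genes was -0.16 on the log2 scale by that measure. Of the 17 measured transitional and mature genes 13 were 4-fold higher in the cKIT- cells and none lower, with a list median of 2.87 on the log2 scale against -0.16 over all genes. Ighd was 13.9-fold higher (10.4 to 19.0), Bank1 10.2-fold (7.17 to 15.1), Cd40 10.5-fold (4.94 to 26.7) and Ms4a1 7.56-fold (6.09 to 9.49). The list of MHC class II presentation followed, 9 of 11 genes with a median of 2.61, among them H2-Aa (11.2-fold, 9.54 to 13.3) and Cd74 (9.02-fold, 8.30 to 9.81). It also holds the regulator Ciita and Cd40, and Cd40 stands in the mature list as well. Other genes with large ratios were Pgap1 (19.5-fold, 5.17 to 164), Pxdc1 (17.6-fold), Nfkb2 (an NF-kappaB subunit, 15.1-fold) and Btla (14.1-fold). Their ratios from the mean of per-cell CPM were 29.5, 9.51, 42.8 and 8.27, in that order. By the mean of per-cell CPM the directions were kept at other sizes. Higher by 4-fold were 5 of 18 mature genes (median 1.52) and 5 of 11 genes of the MHC class II list (median 1.78), against 50 of 3703 in all. Ighd was at 6.93-fold, Bank1 at 3.87-fold, Cd40 at 4.49-fold, Ms4a1 at 2.90-fold, H2-Aa at 5.22-fold and Cd74 at 4.08-fold.

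Of the 13 measured pre-B and pro-B genes 6 were 4-fold lower in the cKIT- cells and none higher, with a median of -1.74. Dntt, with 506 UMIs in 23 of the 64 cKIT+ cells and 0 in the 229, was at least 268-fold higher in the cKIT+ cells. Vpreb1 was 41.5-fold (29.0 to 61.5) and Igll1 27.3-fold (17.9 to 43.5) higher there, and Il7r 3.02-fold (2.28 to 4.03) and Sox4 2.03-fold (1.62 to 2.54). Vpreb3 was 1.79-fold higher in the cKIT+ cells (1.63 to 1.97) while Ebf1 (0.920 of the cKIT+ level, 0.851 to 0.995) and Blnk (0.923, 0.754 to 1.13) were closer to the cKIT+ level. Of the 19 receptor signalling genes 18 were within 4-fold, a count that includes Cd79a and Cd79b, on which both sets were chosen. Cd22, a brake on the receptor, was 7.25-fold higher in the cKIT- cells (3.92 to 14.9). By the mean of per-cell CPM, 10 of 13 pre-B and pro-B genes were 4-fold lower in the cKIT- cells (median -2.61). Over all genes 119 of 3703 were (median -0.16). By that measure Vpreb1 was 269.6-fold, Igll1 165-fold, Il7r 6.09-fold, Sox4 3.78-fold and Vpreb3 2.81-fold higher in the cKIT+ cells. Ebf1 was at 0.708 and Blnk at 0.808 of the cKIT+ level, and Cd22 was 3.83-fold higher in the cKIT- cells.

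Genes of other cell types also differed between these sets. The lower genes were led by Elane (0 against 638 UMIs, at least 338-fold), Dntt, Prtn3 (181-fold, 49.4 to 1501), Mpo (128-fold, 54.2 to 395) and Nkg7 (105-fold, 18.2 to 4211). The mean of per-cell CPM put Prtn3 at 38.3-fold, Mpo at 27.3-fold and Nkg7 at 14.9-fold. Only 1 of the 64 cKIT+ cells held at least 10 Elane UMIs. The neutrophil list summed to 423 CPM in the cKIT- and 2304 CPM in the cKIT+ cells, with 2 of 4 measured genes lower, and the erythroid list to 11.5 and 312 CPM. Their part in the comparison was not tested.

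**Figure D5:**
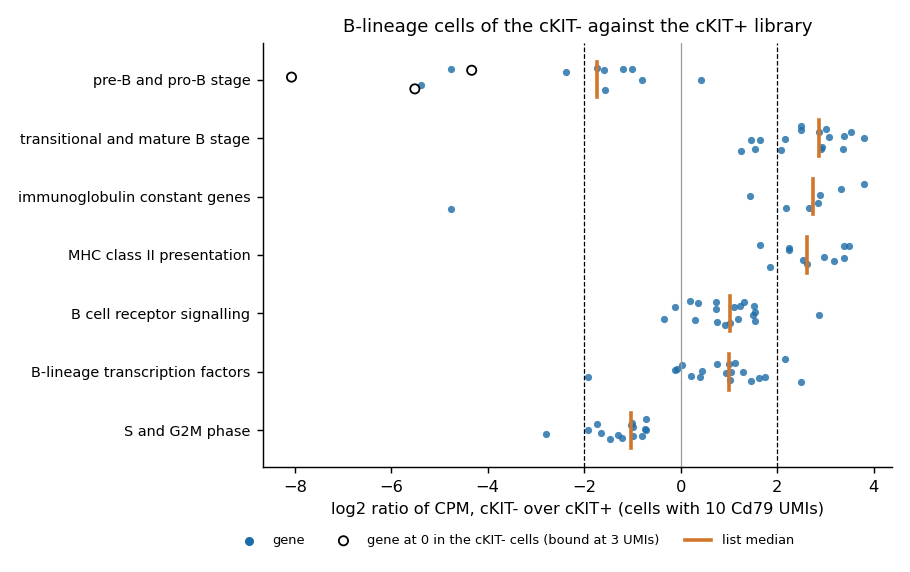
Log2 ratio of CPM, 229 cKIT- B-lineage cells over 64 cKIT+ cells with at least 10 Cd79a plus Cd79b UMIs (horizontal), for the measured genes of 7 lists (rows), each filled point a gene, open circles genes at 0 in the cKIT- cells set at 3 UMIs, orange bars list medians and dashed lines 4-fold. From summed UMIs, the mature and MHC class II lists have medians of 2.87 and 2.61, the pre-B and pro-B list -1.74.

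The share of cells with genes of each stage differed between the sets, and Dntt was found in the cKIT+ cells alone. Mature genes alone marked 24 of the 64 cKIT+ cells (37.5%, 25.7 to 50.5%) and 212 of the 229 cKIT- cells, and precursor genes alone 32 of the 64 (interval 37.2 to 62.8%) and 8 of the 229. Cycling cells were 20 of 64 (31.3%, 20.2 to 44.1%) and 10 of 229 (4.37%, 2.11 to 7.88%). No light chain UMI was found in 20 of the 64 cells and in 1 of the 229, and lambda UMIs in 26 (40.6%, 28.5 to 53.6%) and 217. Ighg2b ran against the other constant genes, with 102 UMIs in 13 of the cKIT+ cells and 6 UMIs in 2 of the cKIT- cells (27.1-fold, 12.0 to 75.5). The median depth was 3377.5 UMIs in the cKIT+ and 2707 in the cKIT- cells, so the higher shares of precursor and cycling cells stood in the deeper set. Mitochondrial transcripts took a median of 4.27% and 7.25% of their UMIs. The part of depth and of RNA quality in these differences was not tested.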

How the data were processed

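The 2 sorted populations were sequenced as 1 single-cell library each with a 10x Genomics 3′ kit (version 3 in the study's methods, version 2 in the sample labels). For each library the authors deposited a matrix of raw UMI counts, and the submitters' processing notes name Cell Ranger 3.0.2 and the build mm10. The counts were read as deposited, with 24033994 UMIs in the cKIT- and 95477153 in the cKIT+ library, and 30934 of 31053 gene identifiers were found in GENCODE release M21, which gave the coordinates. Members were taken by the rule in the opening of the results, and no clustering was run. The members and gene lists were chosen with earlier results of these data known.

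CPM is a gene's summed UMIs per 1000000 UMIs of the group. Genes with at least 50 CPM and 10 UMIs in 1 of the 2 groups were compared, and a 4-fold CPM ratio was counted as called. Sums have exact Poisson intervals, shares exact binomial (Clopper-Pearson) intervals and ratios intervals from the exact binomial, all at 95%. For levels and ratios, a count of 0 was bounded by 3 counts. Shares were also taken with each cell thinned to 1000 UMIs. No doublet caller was run, and members with genes of other cell types were left out as an alternative. Genes named are those of the lists, the rule's genes and the 5 genes at either end of the CPM ratios of each comparison, without the rule's genes and single variable genes. Some genes are not reported here, and the mature set was computed without 1 of them. The counting step was tested on simulated data. Promoter sequences are from RefSeq (GRCm38.p6). Alternatives covered the rule's limits, the cell filter of the study (3663 cKIT- and 6480 cKIT+ cells pass), scaling, minimums, depth and left-out cells. Python 3.11.15, numpy 2.4.6, pandas 2.3.3, scipy 1.17.1, matplotlib 3.10.9 and, for TMM scaling alone, edgeR 4.0.16 in R 4.3.3 were used.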

Additional observations from a re-analysis of the deposited data

Results flagged for a closer look

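Cells with B-lineage genes also lay outside the limits of the rule and enter no comparison above. Of the 30 cKIT- cells with at least 3 Cd79a plus Cd79b UMIs but Mcpt8 at or over 0.5% of their UMIs, 8 held at least 4 Cd79a UMIs, and all 8 had Igkc and Ebf1 and 4 to 18 Ighm UMIs. Their Mcpt8 shares lay within the 0.815 to 5.39% of the 30 cells, and they held 7177 to 15103 UMIs (median 9790.5), against medians of 2707 for the members, 7830.5 for basophils and 12596.5 for the other 22 cells. The other 22 had at most 5 Cd79a plus Cd79b UMIs, 69 of Cd79b and 2 of Cd79a in all, and none had Igkc or Ebf1. In basophils, Cd79b had a UMI in 27.5% of cells and Cd79a in 0.544%. Whether the 8 are 2 cells in a droplet was not tested.

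The 1 cell over the Jchain limit held 886 Jchain, 1799 Igha and 15 Cd79a plus Cd79b UMIs among 20871, with 0 Ighm, 0 Ebf1 and 1 Ms4a1.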

How the results depend on the processing

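Of 270 values under alternatives, 198 stayed within the limits set for a change and 72 moved. Among 104 values of single genes, 37 moved. With 1 library per condition no spread between replicates limits these values, and genes under 50 CPM were few UMIs in 229 cells. No paired analysis was possible because each sort gave a single library. Against basophils (332 genes higher, 342 lower), a minimum of 10 UMIs alone gave 1229 and 691, at least 20 CPM gave 550 and 508, and at least 200 CPM gave 102 and 124. More genes were then higher than lower with the first 2 of these, with Mcpt8 under 2% (319 and 280) and from 2 Cd79a plus Cd79b UMIs (327 and 291). Against the cKIT+ cells of the same rule (334 and 220), these minimums gave 611 and 673, 513 and 435, and 109 and 68, and a limit of 10 Cd79a plus Cd79b UMIs in both libraries gave 119 and 102. The mean of per-cell CPM gave 122 and 207, so that 37.1% and not 60.3% of called genes were higher, and leaving out cells with 3 UMIs of other cell types gave 41 and 10. TMM factors moved the share higher against basophils from 49.3 to 38.2%, with a log2 shift of 0.19 in the comparison with cKIT+ cells. Chosen after seeing the data were the limit of 10 in the cKIT+ library only (119 and 104, or 50 and 119 with the mean of per-cell CPM), the list of other cell types without Cst3 (40 and 47), the removal of cycling members (398 and 345) and that of cells with 10 UMIs of other basophil genes (290 and 208, and 340 and 352 against basophils). Against the cKIT+ cells of the same rule, the balance thus turned to more lower than higher genes with 10 UMIs alone, with the mean of per-cell CPM (also against the cells with 10) and with the list without Cst3. The summed CPM of the 10 B-lineage markers (12122) was 11429 with Mcpt8 under 2%, 11059 from 2 Cd79a plus Cd79b UMIs, 11834 without the Jchain limit, 12956 under the study's filter, 13103 as a mean over cells, 12860 without cells of the list that omits Cst3 and 13204 without cycling cells. Of the 9513 UMIs behind the 12122, 4860 were of Cd79a and Cd79b, the genes of the rule. Kappa-dominant cells were 88.8% from 2 Cd79a plus Cd79b UMIs, 128 members (3.47% of cells) were left without those with 3 UMIs of other cell types, and in thinned members Ms4a1 was found in 70.3% and precursor genes alone in 1.31% (3.49% without thinning). The cause of these changes was not tested, apart from the gene minimums, which set how many genes are counted.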
